A study of Mus musculus with 12 samples.

Results

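Laminin was added to a coat of myelin membranes, and the transcripts of embryonic spinal cord cells grown on both were set against those of cells grown on myelin without it. The comparison uses 6 of the 12 libraries of the series, 3 labelled Laminin + Myelin and 3 labelled Myelin, taken by the condition their labels give. All came from embryos of wild-type C57BL/6 mice at embryonic day 12, whose dissociated spinal cord cells were plated at 500000 per well and kept for 48 hours. Every well, in all 4 coats of the series, carried poly-D-lysine at 20 μg/ml, a synthetic cationic polymer that makes the plastic adhesive. The Myelin wells added myelin membranes from wild-type animals at 10 μg/ml, and the Laminin + Myelin wells added these membranes and laminin at 1 μg/ml. The remaining coats, PDL (poly-D-lysine alone) and Laminin (poly-D-lysine and laminin), entered the shared estimate of spread. The labels call the 3 libraries of a coat biological replicates and do not say how the cultures were separated. The edgeR p-values therefore reflect how far coat differences varied between the replicate numbers of these wells, pooled over all 4 coats. The cells are a mixture of whole dissociated cord, and wells of myelin coat without cells, which the labels also mention, were not analysed here.

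Laminins are trimeric proteins of basement membranes on which embryonic neurites extend readily. Cells bind them through integrins, chiefly pairs of an alpha chain with the beta-1 chain, and through dystroglycan, and bound integrins pass signals to focal adhesion kinase, Src family kinases and the actin cytoskeleton. Myelin of the central nervous system holds proteins that limit neurite growth, several of which act on a receptor complex of neurons that leads to the small GTPase RhoA. Cells that meet both coats therefore receive a growth-permissive and a growth-limiting substrate together, and the question here is which transcripts differed once laminin was present.

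Sequencing depth was similar in both groups, with 36104154 to 43932317 counts in genes per library. Reads outside annotated genes made up 11.01% to 11.9% of all counts in the Laminin + Myelin libraries and 10.8% to 12.4% in the Myelin libraries. A two-sided exact permutation test without regard to replicate number gave p = 0.8 (smallest p possible 0.1). Genes of neurons and of neural progenitors were expressed in both groups. The summed level of 22 pan-neuronal genes was 8717 to 11510 CPM (each count taken relative to the effective total of its library) and that of 29 neural progenitor genes was 1295 to 2059 CPM over the 6 libraries. Hox cluster genes were also expressed, at a summed 2886 to 3308 CPM for 27 genes. In bulk RNA, fewer cells of a type and less RNA per cell cannot be told apart.

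No gene passed the test for a difference between Laminin + Myelin and Myelin. Of 15737 genes tested, 0 passed an adjusted p of 0.05 (0%; edgeR quasi-likelihood test with the replicate number as a block), and the adjusted p was 1 for every gene. At an unadjusted p under 0.05 there were 155 genes (0.985%), of which 84 were higher and 71 lower with laminin. That share is below what a threshold of 0.05 would give with no gene changed, and the reason was not tested. The same count of 0 came from limma-voom (137 unadjusted) and from DESeq2 (84 unadjusted). A missed threshold does not show that a gene was unchanged, so each gene was also tested for lying inside a bound, by a pair of one-sided tests on its log2 change and standard error (SE). Both tests passed, after adjustment over all genes, for 12622 genes (80.2%) at a bound of 1.5-fold either way, which is 0.585 on the log2 scale. A tighter bound of 25% above or below, counted as a ratio, held for 9289 genes (59%), and a wider one of 2-fold for 14483 (92%). The log2 changes had a median of 0.00458, with 90% of genes between -0.26 and 0.27, and the median SE was 0.11.

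**Figure D1:**
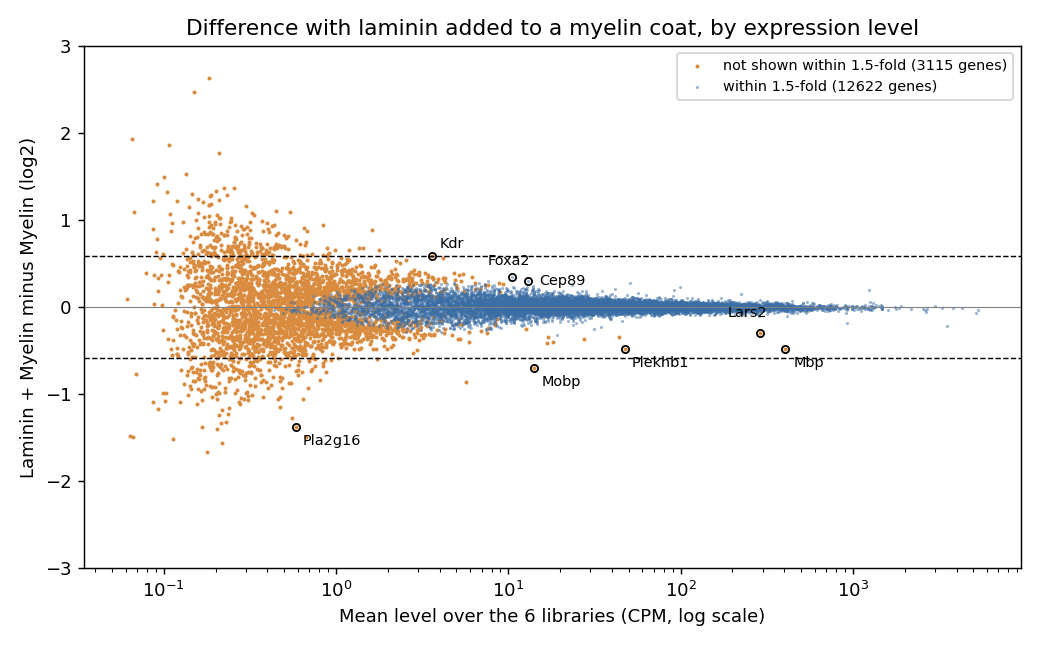
Log2 difference of Laminin + Myelin minus Myelin (vertical axis) against the mean level over the 6 libraries in CPM (log scale). Each point is 1 of 15737 genes, blue where it was shown to lie within 1.5-fold (12622 genes) and orange where it was not (3115), and dashed lines mark 1.5-fold. The spread narrows with level, and few of the orange points lie above 20 CPM.

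The share of genes that could be bounded went with expression level. Among the 10958 genes with a mean of at least 5 CPM over the 6 libraries, 10915 (99.6%) lay within 1.5-fold. The share was 99.9% for the 5057 genes at 20 to 100 CPM and for the 2712 genes at 100 CPM or more, where the 90% interval of the median gene fitted inside 1.13-fold and 1.11-fold. It was 69.6% for the 2302 genes at 1 to 5 CPM and 4.24% for the 2477 genes under 1 CPM, where the median interval reached 1.97-fold. Of the 3115 genes not shown to lie within the bound, 2372 were under 1 CPM, so for them the data neither showed a change nor limited it to 1.5-fold. Among the 13260 genes at 1 CPM or more, 9 had a log2 change beyond the bound in either direction. They were Kdr, Mobp and Gfap, described further on, and C4a (complement, 0.66 ± 0.24), Ccdc114 (ciliary dynein docking, 0.67 ± 0.28), Mb21d1 (a DNA sensor, 0.66 ± 0.23), Tgm2 (a transglutaminase, 0.67 ± 0.23), Usp18 (interferon response, 0.88 ± 0.49) and Spp1 (osteopontin, -0.86 ± 0.40). The last 6 were named after their values were seen.

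**Figure D2:**
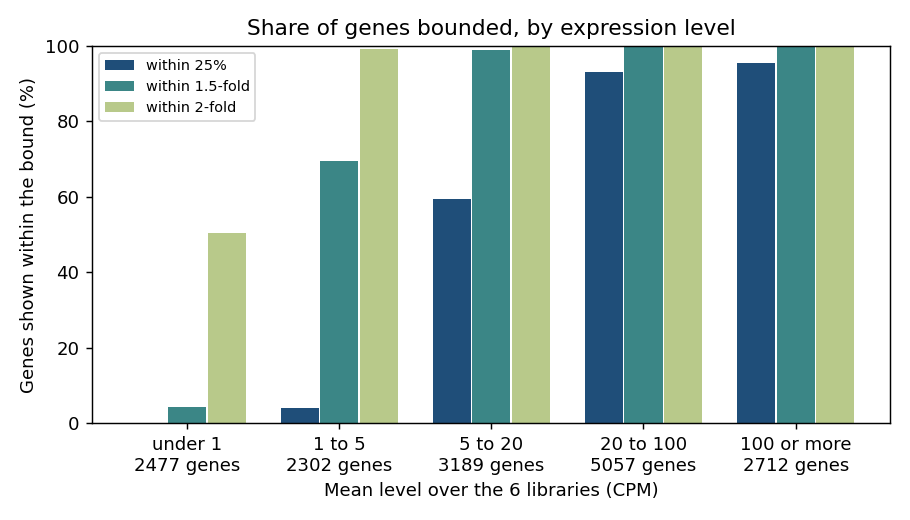
Share of genes (percent) shown to lie within 25%, 1.5-fold and 2-fold between Laminin + Myelin and Myelin, by the mean level over the 6 libraries in CPM, with the number of genes under each group of bars. The share within 1.5-fold goes from 4.24% under 1 CPM to 99.9% at 20 CPM or more.

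Wells that shared a replicate number were closer to each other than wells that shared a coat. Over the 13260 genes at 1 CPM or more, the median absolute log2 difference between Myelin and Laminin + Myelin was 0.0555 for number 1, 0.0973 for number 2 and 0.0928 for number 3. Between libraries of the same coat with other numbers it was 0.144 to 0.219 over 6 pairs. A difference of more than 1.5-fold between the coats was seen in 1.16%, 1.81% and 0.875% of these genes within numbers 1, 2 and 3, against 7.57% to 17.1% between numbers within a coat. The 3 coat differences within a number were each smaller than all 6 differences between numbers within a coat. Xist, the noncoding RNA made from the inactive X chromosome of female cells, shows the sharing in a single gene. It was at 614, 554 and 3.24 CPM on Myelin and at 582, 581 and 3.85 CPM with laminin, so that both number 3 wells were low and the other 4 high.

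The receptors for laminin were the first group of interest, since their ligand was the only difference between the coats. Itgb1, the beta-1 chain shared by most laminin-binding integrins, was at 119, 152 and 172 CPM in Myelin replicates 1, 2 and 3 and at 113, 168 and 165 CPM in Laminin + Myelin, a log2 change of 0.01 ± 0.09 (SE). The groups overlapped, the wells followed their replicate number, and the 90% interval fitted inside 1.12-fold. Dag1, which encodes dystroglycan, had the narrowest interval of the list at 183, 177 and 205 CPM with laminin against 193, 190.0 and 189 CPM without (-0.02 ± 0.06, inside 1.10-fold). The laminin-binding alpha chains Itga6 (0.02 ± 0.09) and Itga3 (0.07 ± 0.12) were also shown to lie within 1.5-fold. Of 21 receptors and integrins tested, 16 lay within the bound, with a median log2 change of -0.02 against 0.00458 over all genes.

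The 5 receptors not shown to lie within the bound were integrin chains of low level. Itga2, an alpha chain of a collagen and laminin receptor, had the lowest value of the list at -0.45 ± 0.39, from levels between 0.272 and 0.5798 CPM in Myelin and between 0.141 and 0.634 CPM in Laminin + Myelin. Itga4, an alpha chain that binds fibronectin and VCAM1, was at 3.55, 5.81 and 7.95 CPM on Myelin and at 2.59, 5.09 and 5.76 CPM with laminin (-0.37 ± 0.15). It was lower in all 3 numbers, its groups overlapped, and its unadjusted p of 0.0275 (edgeR) did not survive adjustment. Itga1, Itgb3 and Itgb4 had log2 changes of -0.20 ± 0.29, -0.36 ± 0.22 and -0.15 ± 0.31.

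Transcripts of signalling components below the integrins were bounded in full, while protein levels and activity were not measured. All 23 focal adhesion and integrin signalling genes tested lay within 1.5-fold, 22 of them within the 25% bound, with log2 changes from -0.07 to 0.10. Their median level was 75.9 CPM, and 99.9% of all genes at 20 to 100 CPM lay within 1.5-fold. Ptk2, focal adhesion kinase, was at 107, 112 and 102 CPM on Myelin and 109, 110 and 104 CPM with laminin (0.01 ± 0.06, inside 1.08-fold). The highest of the list was Vcl, which encodes vinculin, a linker of adhesions to actin (0.10 ± 0.10), and the lowest was Tln1, which encodes talin, the activator of integrins (-0.07 ± 0.11). Src (-0.01 ± 0.08), Fyn (-0.01 ± 0.06) and Ilk, integrin-linked kinase (0.02 ± 0.08), had intervals inside 1.12-fold or less. Members named beyond the extremes, the narrowest interval and a fixed panel were chosen after their values were seen, here and in the groups that follow.

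Genes for the cells' own matrix were bounded less tightly. Of 21 genes for laminin chains and basement membrane, 18 lay within 1.5-fold (median -0.03), but only 4 within the 25% bound. Lamb1 and Lamc1, the beta and gamma chains of common laminins, had log2 changes of -0.04 ± 0.10 and -0.03 ± 0.11. Lama2 and Lama4 were among those not shown to lie within 1.5-fold, at 0.18 ± 0.28 and -0.13 ± 0.33. Of 21 fibrillar and other matrix genes, 15 were within the bound, with a median of 0.08. Above 0 were 14 members, against 8394 of all 15737 genes. Ncan, which encodes the brain proteoglycan neurocan, had the narrowest interval (-0.03 ± 0.09), and Fn1, fibronectin, lay at 0.02 ± 0.15.

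Genes of axon growth and of the neuronal skeleton were shown to be alike within the bound on both coats. Gap43, a growth cone protein whose level goes with axon extension, was at 566, 535 and 412 CPM on Myelin and at 562, 539 and 395 CPM with laminin (-0.02 ± 0.09, inside 1.13-fold). Stmn2, a regulator of growth cone microtubules, was at 1213, 1078 and 872 CPM against 1267, 1116 and 832 CPM (0.01 ± 0.10). In each gene the number 3 wells were the lowest of both coats and the groups overlapped. Of 29 growth and regeneration associated genes, 27 were within 1.5-fold and 23 within the 25% bound (median 0.00336). The exceptions, Gal (galanin, 0.25 ± 0.33) and Cntf (a neurotrophic cytokine, 0.05 ± 0.34), were near or below 1 CPM. Atf3, a transcription factor of injured neurons, was at 0.03 ± 0.25 and within 1.5-fold.

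All 36 cytoskeletal genes lay within the bound, as did 99.9% of all genes at 100 CPM or more (median level of the list 483 CPM). Tubb3, neuronal beta-tubulin, was at 1416, 1303 and 1093 CPM on Myelin and at 1398, 1149 and 1209 CPM with laminin (-0.02 ± 0.08). Map2 and Mapt, microtubule-associated proteins of dendrites and axons, had log2 changes of -0.02 ± 0.07 and -0.00222 ± 0.06. Nefl, the light neurofilament chain, had the narrowest interval (0.03 ± 0.06). Prph, the peripheral neuron filament peripherin, had the highest value of the group at 0.19 ± 0.13 and was higher in all 3 numbers. Of 22 pan-neuronal genes, 21 were within 1.5-fold and the same number within the 25% bound. Thy1, a surface glycoprotein of mature neurons, was not shown to lie within 1.5-fold and was at most 0.396 CPM in any of the 6 libraries.

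Adhesion, guidance and synapse genes were also bounded in full. The 29 neural adhesion genes all fitted within the 25% bound, with L1cam, an axonal receptor that promotes outgrowth, at 0.04 ± 0.10 and Ncam1 at -0.04 ± 0.09. All 38 axon guidance ligands and receptors were within 1.5-fold, and 32 within the 25% bound. Slit3, a secreted repellent, had the highest value of these (0.17 ± 0.10) and was higher in all 3 numbers, at 19.1, 24.6 and 38.6 CPM with laminin against 17.9, 21.3 and 33.7 CPM. The lowest was Robo3, a receptor of commissural axons (-0.08 ± 0.17). All 31 synaptic genes and all 31 genes for transmitter receptors and voltage-gated channels lay within the bound, with medians of 0.0018 and 0.01. The median levels of these lists were 68.2 to 191 CPM. Of all genes at 20 to 100 CPM, 99.9% lay within 1.5-fold and 93.1% within the 25% bound. At 100 CPM or more the shares were 99.9% and 95.6%.

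The receptors and effectors through which neurons respond to myelin inhibitors were within 1.5-fold in 19 of 20 cases. Rtn4r, the Nogo receptor, was at 25.4, 16.7 and 16.4 CPM on Myelin and at 25.2, 15.5 and 19.4 CPM with laminin (0.04 ± 0.11). Its partner Lingo1 (0.01 ± 0.09) and the downstream GTPase Rhoa (0.01 ± 0.08) had intervals inside 1.12-fold. Pirb, a receptor for Nogo that immune cells also carry, was the exception, at 0.889, 2.48 and 4.47 CPM against 0.494, 2.45 and 3.93 CPM (-0.25 ± 0.21), lower in all 3 numbers.

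Progenitor genes were bounded about as often as genes at large. Sox2, a transcription factor of neural progenitors, was at 27.0, 27.5 and 49.7 CPM on Myelin and at 24.5, 31.2 and 51.6 CPM with laminin (0.04 ± 0.09). Nes, which encodes the filament nestin, was at 0.01 ± 0.08. Both genes were highest in the number 3 wells of either coat, and the groups overlapped. Of 29 progenitor genes, 24 (82.8%) were within 1.5-fold, against 80.2% of all genes (median -0.01). Hes5, a Notch target, was not shown to lie within 1.5-fold (0.21 ± 0.24). Nor were Pax7, Dbx1, Dbx2 and Neurog1, each near or below 1 CPM. Dbx1, a factor of ventral interneuron progenitors, had the lowest value at -0.71 ± 0.27, from 1.19, 0.683 and 0.797 CPM to 0.870, 0.238 and 0.554 CPM (unadjusted p = 0.0239, edgeR).

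All 32 cell cycle genes lay within 1.5-fold, as did 98.8% of all genes at 5 to 20 CPM (median level of the list 10.4 CPM). Mki67, a marker of dividing cells, was at 26.5, 24.7 and 48.1 CPM on Myelin and at 22.4, 30.2 and 51.0 CPM with laminin (0.05 ± 0.13). The extremes were Plk1, a mitotic kinase (0.14 ± 0.17), and Cdc6, which licenses replication origins (-0.20 ± 0.17). Of 31 factors and markers of spinal neuron classes, 24 were within the bound, among them Isl1 of motor neurons (-0.20 ± 0.13) and Gad1, an enzyme of GABA synthesis (-0.03 ± 0.06). All 27 Hox genes were within the 25% bound, with log2 changes between -0.07 and 0.05. Their median level was 57.5 CPM, and 93.1% of all genes at 20 to 100 CPM were within that bound.

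Transcript levels of genes for basic cellular functions were shown to be alike within 1.5-fold in nearly all cases, as in 99.6% of all genes at 5 CPM or more. The bound held for all 29 translation factors, 31 proteasome subunits, 34 splicing genes, 32 nuclear genes of oxidative phosphorylation, 24 stress response genes, 24 p53 target and apoptosis genes, 15 feedback genes of the ERK pathway and 16 common reference genes. Gapdh, a glycolytic enzyme often used as a reference, was at -0.06 ± 0.09 and Actb, beta-actin, at -0.04 ± 0.07. Of 40 cytosolic ribosomal protein genes, 39 were within the bound, and Rps27 was not shown to be (0.29 ± 0.19). In this list 32 of 40 members were below 0, against 7343 of all 15737 genes, at a median of -0.04. However, the sign of the median rested on single libraries. It turned to 0.04 without Laminin + Myelin replicate 1, 0.02 without Myelin replicate 2 and 0.02 without Myelin replicate 3, and was -0.12 to -0.06 without each of the others.

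Activity-dependent and signalling genes were bounded where they were well expressed. Of 24 immediate early genes, 17 lay within 1.5-fold, and 5 of the 24 were lower in all 3 numbers, as were 7.85% of all genes. Fos, an early transcription factor of the AP-1 complex, was at 17.4, 41.8 and 42.1 CPM on Myelin and at 13.0, 35.3 and 38.5 CPM with laminin (-0.25 ± 0.12), within 1.5-fold. Klf2, a transcription factor of endothelial and other cells, had the lowest value of the group at -0.93 ± 0.36 and was at most 0.769 CPM. Etv4, a transcription factor downstream of ERK, was lower without overlap (0.763% of all genes) at 4.49, 4.38 and 4.33 CPM with laminin against 5.13, 5.10 and 5.53 CPM (-0.26 ± 0.12), and it too lay within 1.5-fold. The bound held for 17 of 23 targets of Notch, Wnt, BMP and hedgehog signalling, for 22 of 25 targets of YAP and serum response factor, and for 11 of 13 genes of oligodendrocyte precursors. Of 14 nuclear noncoding RNAs and genes of the Dlk1-Meg3 locus, 12 were within it, among them Rian (0.01 ± 0.07) and Malat1 (0.19 ± 0.20).

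In all, 16 of 42 gene lists had every tested member within 1.5-fold, which covers 452 members. In 5 more lists a single member was not shown to lie within 1.5-fold. Of the 970 listed genes tested, 850 were within the bound, against 12622 of all 15737 genes, and 0 passed the test for a change. Of all genes at 5 CPM or more, 99.6% were within 1.5-fold, so full bounding of a well-expressed list is near that share. The medians of 38 lists lay within 0.1 of 0 on the log2 scale. The other 4 were microglial genes (-0.15), mature myelin genes (-0.14), endothelial and mural genes (-0.12) and mesenchymal genes (0.19). All 4 mark cells or material other than neurons and neural progenitors. Further lists of that kind were closer to 0, such as astrocyte (-0.05), erythroid (-0.03), oligodendrocyte precursor (0.01) and epithelial and ependymal genes (0.01). The 4 lists were also scarce, with median levels of 1.28 to 7.36 CPM against 19.3 CPM over all genes. Their median SEs were 0.17 to 0.28, against 0.11.

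**Figure D3:**
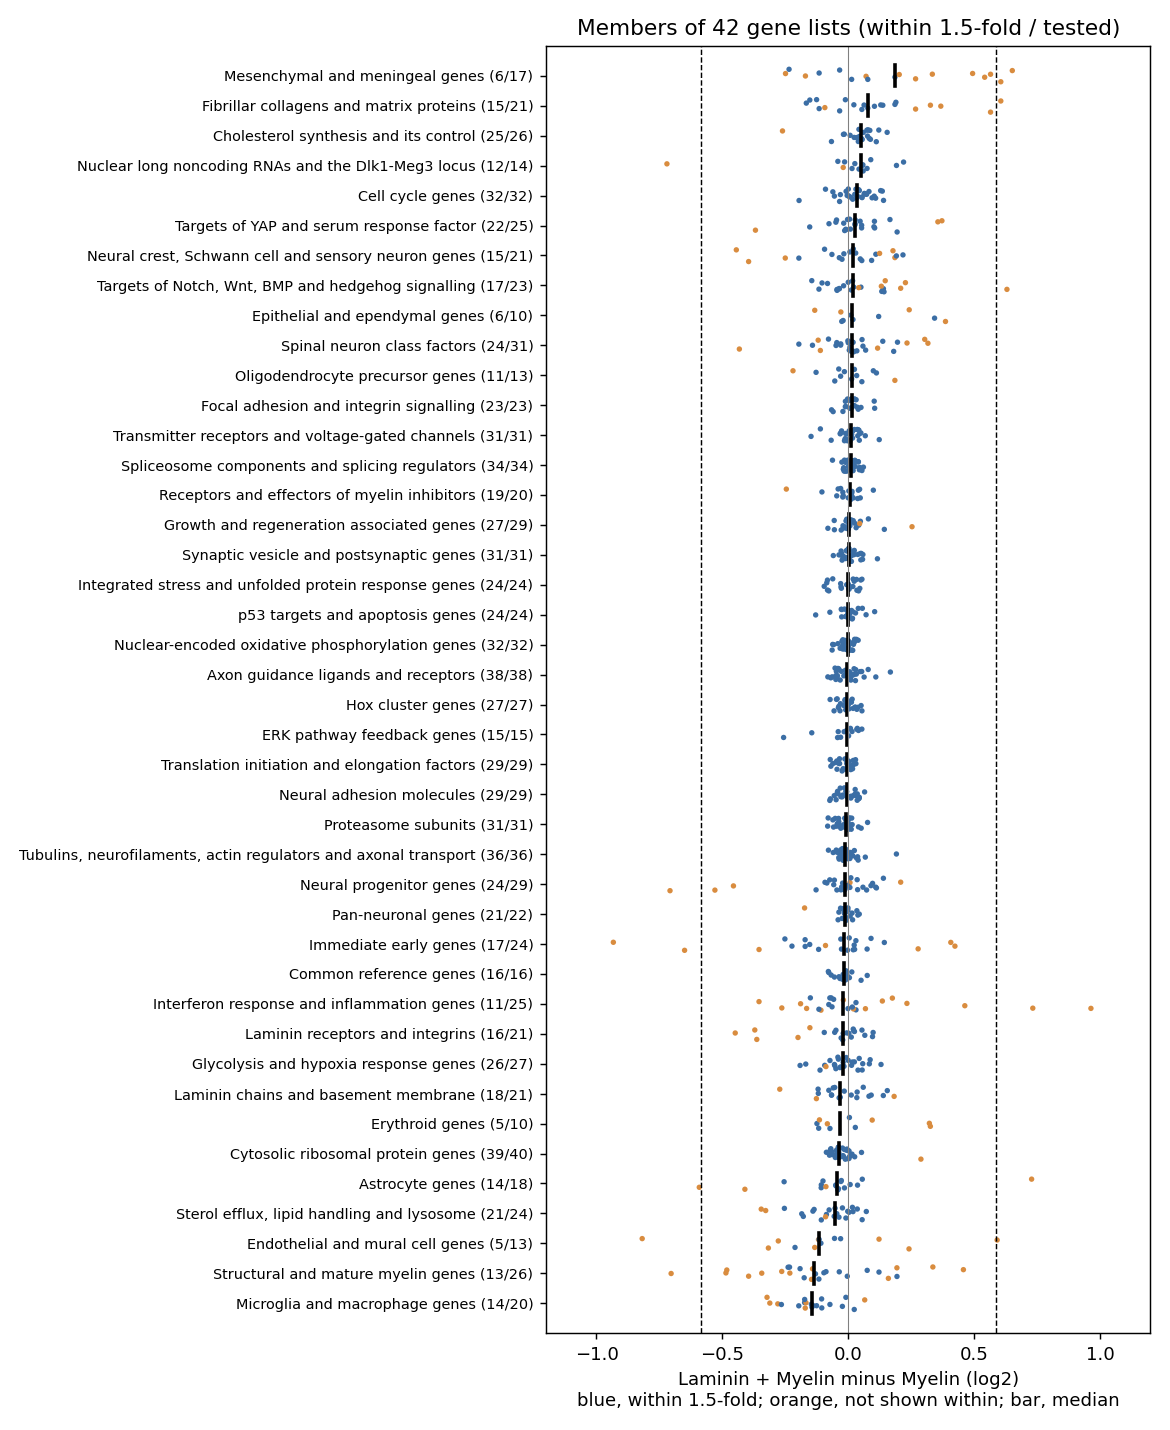
Log2 differences of Laminin + Myelin minus Myelin for the tested members of 42 gene lists, ordered by median (black bar). Points are genes, blue where shown to lie within 1.5-fold and orange where not, dashed lines mark 1.5-fold, and the counts within the bound and tested follow each name. Microglial and mature myelin genes have the lowest medians (-0.15 and -0.14) and mesenchymal genes the highest (0.19).

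Small shifts that remain are described next, and none passed adjustment. The 12 genes with the smallest p were Pla2g16, Cd93, Mx2, Kdr, Tnfsf15, Cep89, 9530059O14Rik, Ppef2, Foxa2, Mobp, Pced1b and Stap1. Their unadjusted p-values from edgeR ran from 0.000593 to 0.00598, 6 were higher with laminin and 6 lower, and all 12 had the same sign in all 3 numbers. Over all genes, 9.43% were higher and 7.85% lower in all 3 numbers, 1.05% were higher without overlap of the groups and 0.763% lower without overlap. Under each alternative and each left-out library that kept them, their direction held and none was called. The 12 were picked by p in a fit on these same libraries with the number as block. Their shared sign and stable direction follow in part from that choice and are no separate support.

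Pla2g16 (chromosome 19, 7557459 to 7588545, plus strand, GRCm38) encodes a phospholipase that acts on membrane lipids and had the smallest p. It was at 0.667, 0.712 and 1.16 CPM on Myelin and at 0.259, 0.262 and 0.449 CPM with laminin (-1.38 ± 0.30). All 3 Laminin + Myelin libraries were below all 3 Myelin libraries. Kdr (chromosome 5, 75932827 to 75978458, minus strand) encodes VEGF receptor 2, which endothelial cells and some neural progenitors carry. It was at 1.58, 2.96 and 4.28 CPM on Myelin and at 2.77, 4.45 and 5.62 CPM with laminin (0.59 ± 0.15). The groups overlapped, and the gene was higher with laminin within each number. Of the 13 endothelial and mural genes tested, 3 were above 0, namely Kdr, Tek (an angiopoietin receptor, 0.12 ± 0.35) and Abcc9 (a channel subunit of pericytes, 0.24 ± 0.46). Most of the other 10 lay within about 1 SE of 0, as did Pecam1 at -0.11 ± 0.22, Flt1 at -0.32 ± 0.34 and Esam at -0.28 ± 0.30. The exception with the lowest value of the list was Des, at -0.82. It was lower in all 3 numbers and, like Kdr, had an unadjusted p under 0.05 (edgeR).

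Cep89 (chromosome 7, 35397035 to 35438689, plus strand), which encodes a protein of the appendages of centrioles, was at 12.39, 10.76 and 12.08 CPM on Myelin and at 14.99, 13.52 and 14.76 CPM with laminin (0.30 ± 0.08, unadjusted p = 0.0038 in edgeR). The groups did not overlap, yet the gene was shown to lie within 1.5-fold. Foxa2 (chromosome 2, 148042877 to 148046969, minus strand), which encodes a factor that specifies the floor plate at the ventral midline of the cord, was at 6.17, 7.06 and 14.7 CPM against 6.89, 10.3 and 18.4 CPM with laminin (0.34 ± 0.10). It too was within 1.5-fold. Further floor plate genes were close to 0, with Shh at 0.02 ± 0.09 and Ntn1 at 0.01 ± 0.07. Pced1b (chromosome 15, 97247107 to 97385680, plus strand) was lower without overlap, at 2.23, 2.17 and 2.48 CPM with laminin against 3.58, 3.59 and 2.75 CPM (-0.53 ± 0.16).

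The remaining genes of the 12, apart from Mobp, were scarce. Cd93, a surface receptor of endothelial and myeloid cells, was at 0.395, 1.05 and 1.18 CPM on Myelin and at 0.235, 0.452 and 0.554 CPM with laminin (-1.05 ± 0.27). Stap1, an adaptor protein of blood cells, went the same way (-0.87 ± 0.26), as did Ppef2, a calcium-regulated phosphatase of photoreceptors (-1.67 ± 0.48). Tnfsf15, a cytokine of endothelial cells, had the highest fitted value (2.63 ± 0.71) and was at 0 CPM in Myelin replicate 2 and at most 0.475 CPM in any of the 6. Mx2, an interferon-induced GTPase (2.47 ± 0.63), and the noncoding RNA 9530059O14Rik (1.78 ± 0.50) were at most 0.370 and 0.352 CPM.

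**Figure D4:**
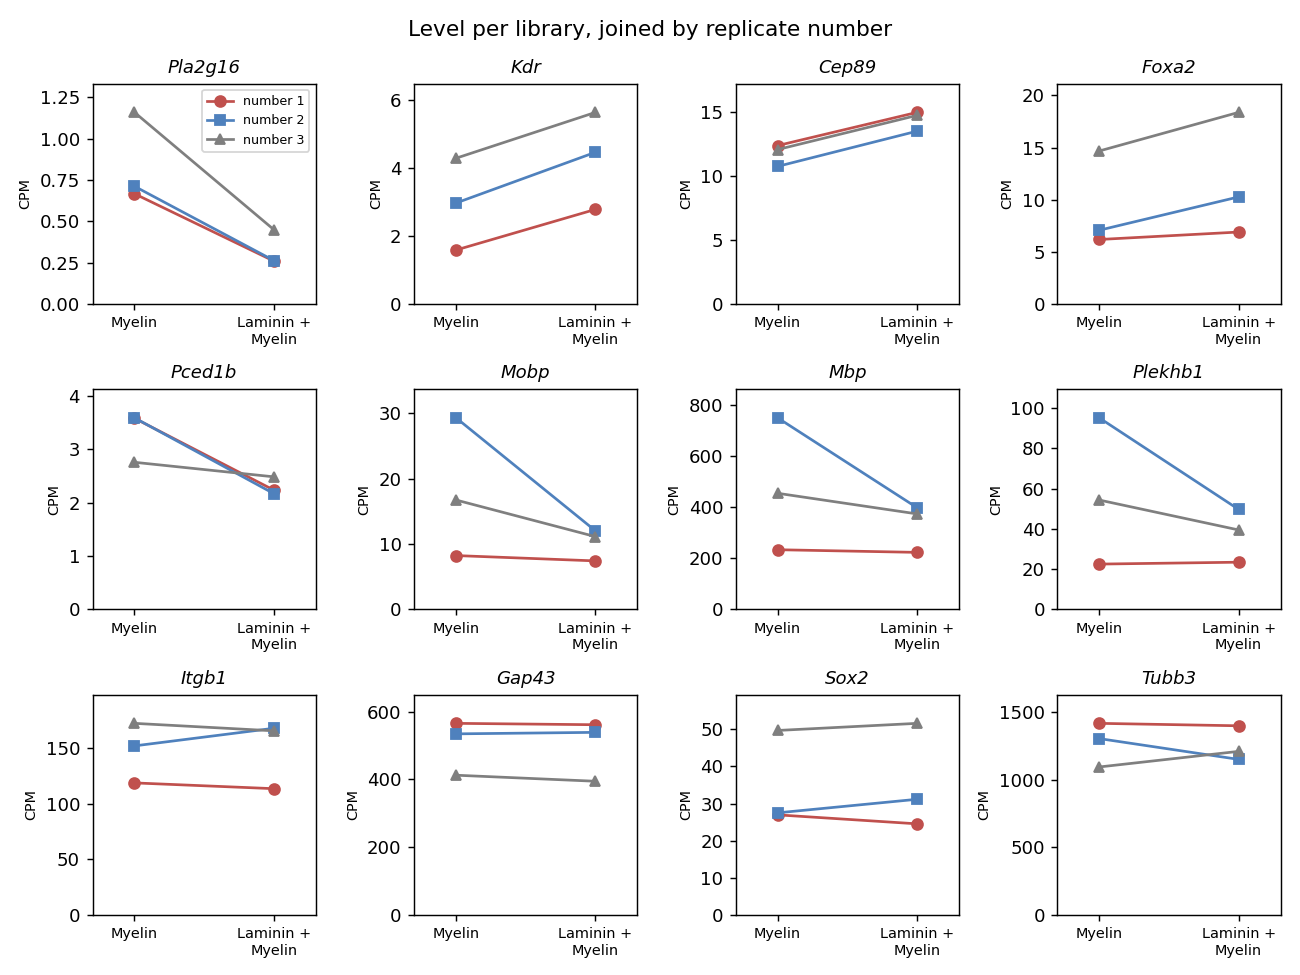
Levels in CPM (linear axes from 0) of 12 genes in each of the 6 libraries, with wells of the same replicate number joined by a line. The top row and Pced1b are genes among the 12 with the smallest p, Mobp, Mbp and Plekhb1 are myelin transcripts that were highest in Myelin replicate 2, and the bottom row holds genes shown to lie within 1.5-fold.

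Myelin transcripts were lower with laminin in numbers 2 and 3 and alike in number 1. Mobp (chromosome 9, 120149707 to 120181484, plus strand), which encodes a basic protein of compact central myelin, was at 8.22, 29.3 and 16.7 CPM on Myelin and at 7.40, 12.0 and 11.11 CPM with laminin (-0.70 ± 0.21, unadjusted p = 0.00516 in edgeR). Mbp, myelin basic protein, was at 233, 748 and 453 CPM against 222, 397 and 373 CPM (-0.48 ± 0.24). Plekhb1, which encodes a pleckstrin homology domain protein of membranes, was at 22.5, 95.3 and 54.4 CPM against 23.4, 49.7 and 39.5 CPM (-0.49 ± 0.19). In all 3 genes the groups overlapped and Myelin replicate 2 stood highest. Without that library, the log2 change was -0.40 for Mobp, -0.02 for Mbp and -0.16 for Plekhb1.

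The summed level of 28 mature myelin genes was 438, 1180.0 and 903 CPM on Myelin and 435, 731 and 780 CPM with laminin. The ratio was 0.993, 0.619 and 0.863 within numbers 1, 2 and 3 (two-sided exact permutation test of the sums without regard to number, p = 0.4). Of 26 members tested, 13 lay within 1.5-fold, 7 were above 0 and 7 (26.9%, against 7.85% of all genes) were lower in all 3 numbers (Mbp, Mobp, Mog, Trf, Tspan2, Cryab and Ndrg1), while 0 were higher in all 3. The median of the list was 0.07 in number 1, -0.43 in number 2 and -0.09 in number 3. Left without Myelin replicate 2, the fitted median went from -0.14 to -0.02, with 14 members below 0 and 12 above. Cnp, an enzyme of oligodendrocytes, had a log2 change of 0.08 ± 0.16, and Ugt8a, which makes the lipid galactocerebroside, had -0.09 ± 0.09. Among astrocyte genes, S100b and Gfap also stood highest in Myelin replicate 2. S100b, a calcium-binding protein, was at 8.86, 30.4 and 19.5 CPM on Myelin and at 8.93, 16.8 and 16.3 CPM with laminin (-0.41 ± 0.22, and -0.00345 without Myelin replicate 2). Gfap, the astrocyte filament, was at 1.01, 3.30 and 2.08 CPM against 0.870, 1.52 and 1.64 CPM (-0.59 ± 0.28, and -0.38 without Myelin replicate 2). In coats without myelin membranes these transcripts were much lower. Mobp was at 0.166 ± 0.107 CPM on PDL and 0.214 ± 0.0818 CPM on Laminin, and Mbp at 30.5 ± 4.69 and 35.8 ± 7.04 CPM (SD, n = 3 each). The summed myelin list was at 175 to 346 CPM on PDL and 196 to 352 CPM on Laminin. On the 2 myelin coats, RNA of the membranes and RNA of the cells cannot be told apart in these genes.

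Microglial and macrophage genes had the lowest median of the lists, -0.15, but no member passed the test, and 0 of 20 had an unadjusted p under 0.05 (edgeR). Of the 20, 18 were below 0, against 7343 of all 15737 genes, and 7 (35%) were lower in all 3 numbers, against 7.85% of all genes. Within 1.5-fold were 14 (70%, against 80.2%). Their summed level was 66.1, 171 and 269 CPM on Myelin and 56.6, 155 and 249 CPM with laminin. The ratio was 0.856, 0.909 and 0.927 (exact permutation test without regard to number, p = 0.7). Between the numbers of 1 coat the sums differed far more than between the coats within a number. A test without pairing could therefore not detect a small shift within numbers. Cx3cr1, the fractalkine receptor of microglia, was lowest of the list at -0.32 ± 0.15, and Lyz2, a lysozyme of myeloid cells, had the narrowest interval at -0.14 ± 0.12. C1qa, a complement subunit, was at -0.15 ± 0.14, and Trem2, a receptor for lipids, at -0.01 ± 0.19. The median of the list was -0.04 without Laminin + Myelin replicate 1 and -0.26 without Laminin + Myelin replicate 3. Of 24 genes of sterol efflux, lipid handling and lysosome, 18 were below 0, with a median of -0.05. In this list 6 (25%, against 7.85% of all genes) were lower in all 3 numbers (Abca1, Abcg1, Npc1, Lipa, Lpl and Plin2). Lpl, lipoprotein lipase, was at 12.4, 15.4 and 30.4 CPM against 10.5, 13.4 and 20.4 CPM with laminin (-0.35 ± 0.15, unadjusted p = 0.0367 in edgeR). The part of the lower microglial sums in these values was not tested.

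Mesenchymal and meningeal genes had the highest median, 0.19, but 11 of 17 members could not be bounded to 1.5-fold. Of these 17, 12 were above 0, against 8394 of all 15737 genes. Higher in all 3 numbers were 5 (29.4%, against 9.43% of all genes), namely Prrx1, Dcn, Aldh1a2, Snai1 and Snai2. Dcn, the matrix proteoglycan decorin, was at 2.07, 3.22 and 4.83 CPM on Myelin and at 2.54, 6.12 and 6.42 CPM with laminin (0.56 ± 0.26, unadjusted p = 0.0483 in edgeR). Snai2, a transcription factor of migrating mesenchyme, was higher without overlap at 0.400, 0.548 and 0.502 CPM against 0.370, 0.228 and 0.314 CPM (0.65 ± 0.35). Summed over 20 genes, however, the level differed by a ratio of 1.08, 1.01 and 0.998 within numbers 1, 2 and 3. With only genes at 1 CPM or more in 3 libraries, the median of the 11 left was 0.08. Endothelial and mural genes were mostly scarce, and 8 of 13 were not shown to lie within 1.5-fold. Cholesterol synthesis genes were above 0 in 22 of 26 cases (median 0.05), and 25 were within 1.5-fold. Within number 1 the median was 0.15 and 1 member was below 0, while 18 were below 0 in number 2, and without Laminin + Myelin replicate 1 the fitted median was 0.00243.

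**Figure D5:**
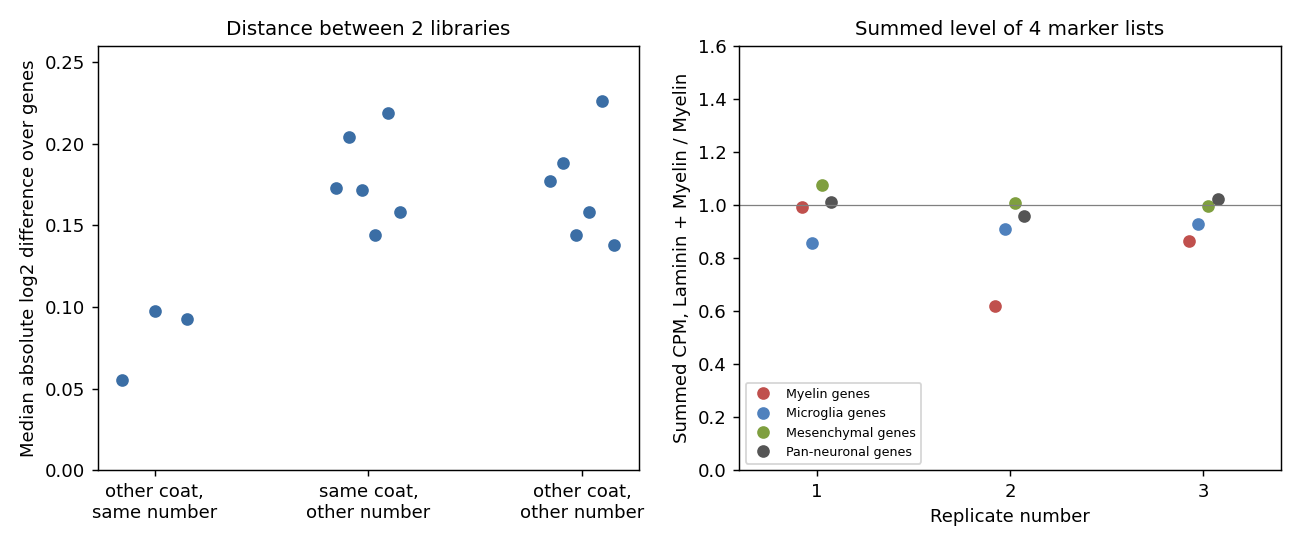
Left, median absolute log2 difference over 13260 genes for each pair of the 6 libraries, which is 0.0555 to 0.0973 for wells of the same number on different coats and 0.138 to 0.226 for all other pairs. Right, ratio of the summed CPM of 4 marker lists, Laminin + Myelin over Myelin, within each replicate number, where the lowest ratio is 0.619 for myelin genes in number 2.

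Of the 7769 genes with a mean of at least 20 CPM, 6 were not shown to lie within 1.5-fold. Mbp, Plekhb1 and Bcas1, a gene of oligodendrocytes (-0.34 ± 0.25), belong to the myelin list. Lars2, the mitochondrial leucyl-tRNA synthetase, was at 184, 446 and 336 CPM on Myelin and 237, 269 and 263 CPM with laminin (-0.30 ± 0.30). Mir6236, annotated as a microRNA, was at 11.7, 50.4 and 33.1 CPM against 17.9, 27.5 and 23.3 CPM (-0.37 ± 0.35). Rn45s, the precursor of ribosomal RNA and among the 10 genes with the most counts, had the same order of Myelin libraries, at 3064, 4454 and 3783 CPM against 3422, 3022 and 3292 CPM (-0.21 ± 0.12, within 1.5-fold). In these 3 genes, as in the myelin transcripts, Myelin replicate 2 was the highest of the 6 libraries. The interferon list as a whole had 11 of 25 members within the bound, with Ifit1, an interferon-induced RNA-binding protein, highest at 0.96 ± 0.58.

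The other 9 of the 10 genes with the most counts lay within 1.5-fold. They were the tubulins Tuba1a (-0.04 ± 0.10), Tubb5 (-0.03 ± 0.07) and Tubb2b (-0.06 ± 0.07), the translation factors Eef1a1 (-0.07 ± 0.12) and Eif4g2 (0.01 ± 0.07), the microtubule proteins Map1b (-0.01 ± 0.11) and Dcx (-0.02 ± 0.08), the growth cone protein Dpysl3 (-0.01 ± 0.06) and Actb. Meg3, a nuclear noncoding RNA, was at 1681, 1011 and 1017 CPM on Myelin and 1674, 1179 and 1016 CPM with laminin (0.06 ± 0.26). It lay within 1.5-fold, with an SE above the median of 0.11 over all genes.

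The same amount of laminin was also added to poly-D-lysine without myelin, which allows the effects to be set side by side with no shared library. On PDL, 1282 genes (8.15%) differed with laminin, 419 higher and 863 lower (edgeR, adjusted). The median absolute log2 difference over all genes was 0.18 there, against 0.04 on myelin. Of these 1282 genes, 1110 (86.6%) lay within 1.5-fold when laminin was added to myelin, a share near the 80.2% of all genes. Those higher on PDL had a median log2 change of 0.34 there and 0.00574 on myelin, and those lower had -0.52 and 0.01. These genes were picked and split by their differences on PDL, so larger medians there follow in part from that choice. Acta2, smooth muscle actin, was 1.31 ± 0.22 higher with laminin on PDL (adjusted p = 0.0171, edgeR) and 0.05 ± 0.21 on myelin, where it was within 1.5-fold. Meg3 was 1.27 lower on PDL by the same test (log2 -1.27 ± 0.26, adjusted p = 0.0239), and Mki67 was also lower there (-0.64 ± 0.13, adjusted p = 0.0225).

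Whether the laminin effect differed between the substrates was tested by the interaction, and 0 of 15737 genes passed (0%, edgeR, lowest adjusted p = 0.167). At an unadjusted p under 0.05 there were 2603 genes (16.5%). That share is above what a threshold of 0.05 would give with no gene changed, and the reason was not tested. The adjusted interaction p was 0.169 for Acta2, 0.19 for Meg3 and 0.185 for Mki67. DESeq2 called 241 genes in the interaction, and edgeR called 83 when Laminin replicate 1 was left out, so the count depends on the tool and on that library. The count of 1282 was likewise unstable, at 0 without PDL replicate 1 or without PDL replicate 2. PDL libraries had 17.4% to 19.4% of counts outside genes, and Laminin libraries 8.46% to 13.7%, with Laminin replicate 1 the lowest of the 12. The part of this in the differences on PDL was not tested.

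The authors' deposited table holds their own comparison of the same groups. It lists 0 genes with an adjusted p under 0.05, with every adjusted value at 1, and 233 genes with an unadjusted p under 0.05, the smallest of which is 0.000347.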

How the data were processed

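The deposited table holds whole-number counts per gene for 12 libraries, not normalized by the authors, and the authors' own log2 fold changes with p-values and adjusted p-values. Its 12 columns of normalized values were not used. CASAVA 1.8.2, edgeR and the builds mm10 and GRCm38 appear in the submitters' processing notes. For the aligner, counter and strand, nothing is given in the sources used here, so overlapping or antisense genes may share counts. Of 21033 entries, 3 name no gene and were left out (outside genes, aligned to several places at 11.5% to 13.6% of counts, ambiguous at 0.579% to 0.717%). A spreadsheet had turned 27 symbols into dates, of which 25 were restored.

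Counts of all 12 libraries were fitted in edgeR 4.0.16 (R 4.3.3, limma 3.58.1, statmod 1.5.0) with filterByExpr, TMM factors, coat and replicate number as terms, and robust quasi-likelihood dispersions. Benjamini-Hochberg adjustment ran over all 15737 genes, with a threshold of 0.05. Bounds were tested by 2 one-sided tests with each gene's moderated degrees of freedom, and 90% intervals are unadjusted. DESeq2 1.42.0 and limma-voom were alternatives. Distances between libraries used log2(CPM + 0.1). Figures used Python 3.11.15 and matplotlib 3.10.9.

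The rule of the comparison names the replicate number as block. Same-numbered Myelin and Laminin + Myelin libraries correlated in their deviations from group means at 0.83, 0.315 and 0.764 (all 3 over 0.1). Different numbers correlated at -0.77 to 0.199, so the numbers were taken to pair the wells. Deviations within a coat cancel out, so negative values between different numbers are in part built in. Over all 12 libraries, the ranges between coats overlapped, at 0.218 to 0.83 for the same number and -0.77 to 0.243 for different numbers. Replicates of a coat differed by more than sampling noise (chi-square per degree of freedom 25.6 to 67.1) and were each kept. Gene positions are from GENCODE M21 on GRCm38, matched by symbol.

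The comparison, the 42 gene lists and the panel of 41 genes were chosen with earlier results of these data known. Named genes are the 12 with the smallest p (none being called), the panel, the 10 with the most counts, and the highest, lowest and narrowest-interval member of each list. Some genes that the rule names are not reported here.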

Additional observations from a re-analysis of the deposited data

How the results depend on the processing

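For Laminin + Myelin against Myelin, 0 genes were called in the main analysis and under every alternative run, which were no replicate block (29 genes at an unadjusted p under 0.05), other scalings, other filters, limma-voom, DESeq2, a test against 1.2-fold, the 6 libraries alone with the block (236 unadjusted), and each of the 6 libraries left out. Alternatives chosen after seeing the data, the 9 libraries without PDL and the 6 alone with no replicate block, and gave 0 as well. The 12622 genes within 1.5-fold became 10714 with no replicate block, all of them among the 12622, 12381 to 12676 under other scalings, filters and tools, 11782 to 12054 with a library left out, 12898 with the 6 alone and the block, 12558 with 9 libraries and 10427 with 6 and no replicate block. The biological coefficient of variation was 9.01% with the replicate block, 20.5% without it and 5.63% for the 6 libraries with it, so the bounds rest in part on the pairing. For Laminin against PDL, 1282 genes became 0 with no replicate block, 2414 by DESeq2 and 0 to 2430 with a library left out. The interaction went from 0 to 241 genes by DESeq2 (220 higher, 21 lower) and 0 to 83 with a library left out. The cause was not tested. Depth limits genes under 1 CPM, of which 4.24% could be bounded to 1.5-fold.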
